A study of Homo sapiens with 8 samples.

Results

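In wild-type (WT) PC3 cells the DNMT1 ChIP-Seq list held 2237 peaks. Of these, 973 shared no base with any DNMT1 peak of the DAXX knockdown (K/D) cells and no base with any WT DAXX peak. They were chosen by those 3 peak lists, so their loss and their separation from DAXX define them and are not results. Among the 2234 WT DNMT1 peaks on chromosomes 1 to 22, X and Y, 91.4% had no K/D DNMT1 peak and 47.4% had no WT DAXX peak. On those chromosomes 970 peaks made up the group, called lost peaks away from DAXX, and the remaining 3 lay on unplaced contigs and were left out. The other WT DNMT1 peaks were 1072 lost peaks on DAXX, 90 kept peaks away from DAXX and 102 kept peaks on DAXX.

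PC3 is a prostate cancer cell line that came from a bone metastasis. The WT cells were compared with a counterpart carrying a stable DAXX shRNA and grown with puromycin, whereas the medium of the WT cells is described without it. The published methods also name a non-target shRNA control virus and give the ChIP control as WT or non-specific shRNA cells. The sample labels say WT, so whether these cells carried a control shRNA is unclear. Chromatin was collected with antibodies to DAXX and DNMT1 and for a histone mark labelled DMHH3(Lys4), called H3(Lys4) here, whose antibody the labels do not give, and an input library came from each line. Each of the 8 combinations was 1 library from 1 line, so no difference between WT and K/D had a replicate check. The tests below compare peaks of these libraries with one another and say nothing of the spread between cultures. A lost peak is one not called in K/D: both DNMT1 lists required 9 tags, the WT library held 14391288 tags and the K/D library 12050101, and called peaks took 0.263% of the WT tags and 0.0663% of the K/D tags. Called WT peaks averaged 16.9 tags, so the word lost does not show that DNMT1 was absent from a site in K/D. The comparison with input removed 79.6% of 14065 putative WT DNMT1 peaks and 74.8% of 2710 in K/D. For WT DAXX it removed 34.3% and for WT H3(Lys4) 1.58%. DAXX itself was still called at 42894 peaks in K/D, against 59778 in WT.

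DNMT1 is the maintenance methyltransferase, which copies CpG methylation onto the new strand after replication. DAXX is a histone H3.3 chaperone and a corepressor that can bring chromatin enzymes to DNA-bound factors. AP-1, a dimer of JUN and FOS family proteins, and the RUNX and FOX factors bind short motifs at enhancers, and methylation of H3 at lysine 4 marks promoters and enhancers.

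The sequences of the strongest of these sites are given first, because AP-1 had the smallest p of the 19 properties compared with lost peaks on DAXX. Of the first lost peaks away from DAXX that hold it and lay in introns or between genes, 5 are printed, with the exceptions given in the methods, from the plus strand of GRCh37, 1 whole peak each, with TGACTCA or its reverse complement TGAGTCA in capitals.
intergenic, nearest FAR2, chr12:29111835-29111963: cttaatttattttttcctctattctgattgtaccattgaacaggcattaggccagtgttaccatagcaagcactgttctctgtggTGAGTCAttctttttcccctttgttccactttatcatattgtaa
SLX4IP intron, chr20:10554036-10554164: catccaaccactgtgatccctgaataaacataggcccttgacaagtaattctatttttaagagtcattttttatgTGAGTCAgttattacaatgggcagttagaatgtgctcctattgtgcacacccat
MBNL1 intron, chr3:152035840-152035968: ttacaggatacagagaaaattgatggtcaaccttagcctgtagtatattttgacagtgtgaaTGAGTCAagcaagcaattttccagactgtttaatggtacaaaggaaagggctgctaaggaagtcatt
intergenic, nearest PRMT6, chr1:107163372-107163500: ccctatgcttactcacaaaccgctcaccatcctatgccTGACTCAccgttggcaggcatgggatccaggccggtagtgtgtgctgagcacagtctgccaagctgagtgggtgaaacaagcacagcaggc
SH3RF3 intron, chr2:109859409-109859537: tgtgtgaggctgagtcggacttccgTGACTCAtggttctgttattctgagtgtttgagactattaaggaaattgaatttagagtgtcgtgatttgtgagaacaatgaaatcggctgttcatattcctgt

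The motif was written TGAGTCA in 3 of the 5 peaks and TGACTCA in the other 2, and its place within the peak varied. The first 3 peaks of the group that lacked it, chosen in the same way, stand earlier in the list than all 5 above and are shown for contrast.
PARD3 intron, chr10:34410941-34411069: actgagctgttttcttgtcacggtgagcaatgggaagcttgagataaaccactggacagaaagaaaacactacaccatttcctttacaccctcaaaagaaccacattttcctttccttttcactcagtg
ERN1 intron, chr17:62159628-62159756: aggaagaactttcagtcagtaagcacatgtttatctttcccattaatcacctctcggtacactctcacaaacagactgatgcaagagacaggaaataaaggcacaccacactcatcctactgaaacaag
intergenic, nearest TMEM26, chr10:63237408-63237536: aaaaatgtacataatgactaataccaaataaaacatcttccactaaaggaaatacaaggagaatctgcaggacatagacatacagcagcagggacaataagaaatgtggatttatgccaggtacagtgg

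The first 2 lost peaks on DAXX with the motif are given for comparison, from an intron of ACTN1, which encodes the actin crosslinker alpha-actinin, and from near TNFSF18, a cytokine gene.
ACTN1 intron, chr14:69351116-69351244: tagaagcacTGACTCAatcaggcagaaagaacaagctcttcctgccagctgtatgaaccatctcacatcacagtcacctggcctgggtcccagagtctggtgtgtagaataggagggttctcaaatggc
intergenic, nearest TNFSF18, chr1:173031367-173031495: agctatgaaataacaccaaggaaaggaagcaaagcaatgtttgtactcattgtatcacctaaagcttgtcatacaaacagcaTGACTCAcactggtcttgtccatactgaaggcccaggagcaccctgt

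AP-1 was the motif most enriched at the lost peaks away from DAXX relative to their surroundings, and it was less frequent there than at lost peaks on DAXX. Within 100 bp of the centre, 177 of 970 peaks away from DAXX held it (18.2%, exact 95% binomial interval 15.9 to 20.8), against 56 of 1940 windows of the same length 2 kb to either side (2.89%, 2.19 to 3.73), a ratio of 6.32. Of the lost peaks on DAXX, 391 of 1072 held it (36.5%, 33.6 to 39.4). The share over all WT DAXX peaks was 36.2%. The odds of an AP-1 motif were 0.389 times those at lost peaks on DAXX (95% interval 0.317 to 0.477, adjusted p = 4.03e-19, two-sided Fisher's exact test, Benjamini-Hochberg over 19 properties). Intervals cover counting error only. The 184 AP-1 sites of the group lay a median of 39.5 bp from the peak centre (quartiles 18.5 and 69.0), and 6 peaks held more than 1 site. At lost peaks on DAXX the median distance was 39.0 bp.

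Over the whole list, RUNX and FOX motifs followed the same order. The RUNX motif TGTGGT was at 17.5% of the lost peaks away from DAXX, 12.8% of their neighbouring windows and 29.0% of lost peaks on DAXX (odds ratio 0.520, 0.421 to 0.643, adjusted p = 5.62e-09, Fisher's exact test). The FOX motif TGTTTAC was at 7.84%, 3.04% and 11.2% in the same order (odds ratio 0.674, 0.499 to 0.912, adjusted p = 0.0333, Fisher's exact test). Over all WT DAXX peaks the shares were 20.1% for RUNX and 8.18% for FOX, both below those of lost peaks on DAXX. The FOX share away from DAXX was thus near that of DAXX peaks in general. The FOX call was lost by the same exact test without chromosomes 8, 10 and 14 (adjusted p = 0.128), without the repeat copies described later (adjusted p = 0.0919) and with DAXX or K/D DNMT1 peaks within 1000 bp counted as shared (adjusted p = 0.271). RUNX motifs were at 30 of the 177 peaks away from DAXX with AP-1 (16.9%) and at 140 of the 793 without (17.7%). None of AP-1, RUNX, ETS and FOX was found at 588 of the 970 peaks (60.6%), against 37.1% of lost peaks on DAXX and 81.4% of the neighbouring windows.

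The nuclear receptor half-site, TGACCTC or TGACCTT, went the other way: it was scarcer at the lost peaks away from DAXX than beside them. It was at 3.40% of the peaks (2.35 to 4.74), 8.45% of their neighbouring windows and 8.77% of lost peaks on DAXX (odds ratio 0.366, 0.244 to 0.550, adjusted p = 1.61e-06, Fisher's exact test). Over all WT DAXX peaks the half-site was at 21.5%. The word TGTAATCCC, which Alu repeats hold, was in 0.722% of the peaks and 6.19% of the neighbouring windows. The form TGACCTC alone was in 19 of the 970 peaks and 102 of the 1940 windows, and TGACCTT in 15 and 64. The part of Alu repeats in these shares was not tested.

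The other 8 motifs did not pass the test. ETS (CCGGAA), bound by factors such as ETV1, was at 2.47% of the peaks away from DAXX and 0.825% of the windows beside them, with 3.82% at lost peaks on DAXX (adjusted p = 0.224, Fisher's exact test). The TEAD motif, searched as GGAATG, was at 13.7% of the lost peaks away from DAXX and 16.0% of those on it. The C/EBP motif, with the letters TTGCNNAA, was at 13.9% and 14.7% in the same order. The motif of GATA factors, AGATAA, was at 14.9% and 12.4%. That of SP1, a factor of CpG-rich promoters, was GGGCGG, at 2.58% and 2.99%. The E-box CACGTG was at 1.44% and 1.59%, and the motif of the insulator protein CTCF at 1.03% and 0.466%. At an unadjusted p under 0.05 none of the 8 was called either. TEAD passed when the deposited peak alone was searched (odds ratio 0.690), and GATA passed when DAXX or K/D DNMT1 peaks within 1000 bp counted as shared (odds ratio 1.39). The cyclic AMP response element TGACGTCA was in 2 of the 970 peaks and in none of the 1072. The search covered both strands, and a match is a run of letters and not a shown binding site.

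**Figure D1:**
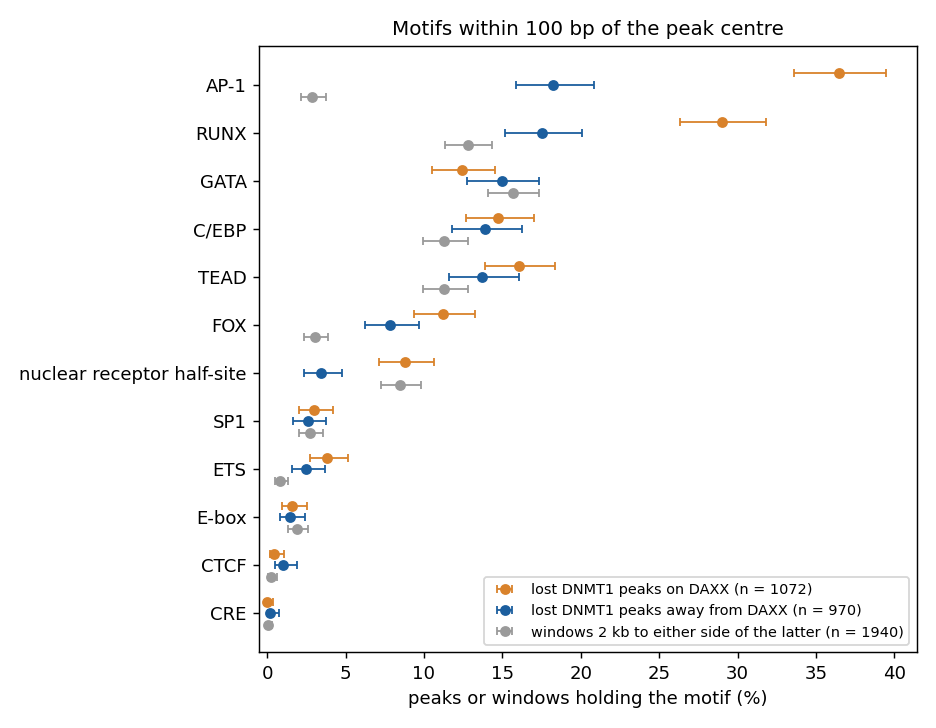
Share of peaks or windows of 201 bp holding each motif, in percent, with exact 95% binomial intervals, for lost WT DNMT1 peaks away from DAXX (blue), their neighbouring windows (grey) and lost peaks on DAXX (orange). AP-1 rises from 2.89% in the neighbouring windows to 18.2% away from DAXX and 36.5% on DAXX, whereas the half-site is lower away from DAXX than in both other groups.

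Words outside the fixed motif list were looked at after the windows had been seen. ACAGTCA was in 143 of the 970 peaks (14.7%) and in 3.20% of the windows beside them, with 14.3% at lost peaks on DAXX. Its share was higher at kept peaks, both away from DAXX (25 of 90, 27.8%) and on DAXX (28 of 102, 27.5%). TGAATCA, which differs from the AP-1 motif by a base, was at 8.45% of the peaks away from DAXX, 3.35% of their windows and 15.4% of lost peaks on DAXX. These values are a description, with no test.

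CpG, the substrate of DNMT1, was about as common at the lost peaks away from DAXX as beside them. At least 1 CpG lay within 100 bp of the centre at 695 of the 970 peaks (71.6%) and at 73.3% of the neighbouring windows, with a median of 1 CpG in each, and 275 peaks held none. Lost peaks on DAXX had a CpG more often, at 77.3% (odds ratio 0.741, 0.607 to 0.905, adjusted p = 0.0140, Fisher's exact test). By the same exact test the call was lost without chromosomes 8, 10 and 14 (odds ratio 0.884, adjusted p = 0.485) and when at least 3 CpG were asked for (odds ratio 0.866, adjusted p = 0.306). The median GC content was 39.8% at the peaks away from DAXX, 40.3% beside them and 41.8% at lost peaks on DAXX. Only 25 of the 970 peaks (2.58%) held 10 or more CpG, and 10 of these were among the 42 promoter peaks, whose median was 4 CpG.

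H3(Lys4) regions covered fewer of the lost peaks away from DAXX than of those on DAXX. A WT H3(Lys4) region overlapped 304 of the 970 peaks (31.3%, 28.5 to 34.4), 483 of the 1072 on DAXX (45.1%) and 37.7% of all WT DNMT1 peaks (odds ratio 0.557, 0.464 to 0.667, adjusted p = 2.18e-09, Fisher's exact test). A further 169 peaks (17.4%) had a region within 1000 bp without touching it, and then the shares were 48.8% and 66.8%. K/D H3(Lys4) regions overlapped 19.0% of the peaks away from DAXX, 22.9% of those on DAXX and 20.8% of all WT DNMT1 peaks (odds ratio 0.790, 0.638 to 0.979, adjusted p = 0.0919, Fisher's exact test), a difference that passed the test when stratified over 4 equal parts of the list (odds ratio 0.758). Of the 304 peaks on a WT region, 93 were also on a K/D region (30.6%), beside 26.7% for lost peaks on DAXX. Of all WT H3(Lys4) regions, 45.8% shared a base with a K/D region anywhere along their length. That is a looser measure than a K/D region on the DNMT1 peak itself, so it cannot be set against those shares. H3(Lys4) peaks took 23.9% of the tags in WT and 15.1% in K/D, and the part of this gap in the shares was not tested. Peaks with an AP-1 motif were on a WT region in 35.0% of cases and those without in 30.5%.

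By place in the annotation, no difference between lost peaks away from and on DAXX passed the test. Introns held 519 of the 970 (53.5%), intergenic sequence 378 (39.0%), promoters, taken as the 1000 bp before and the 100 bp after the start of a protein-coding transcript, 42 (4.33%), and exons 31 (3.20%). Among lost peaks on DAXX the shares were 53.2%, 40.7%, 3.64% and 2.52%, with odds ratios of 1.01 (0.852 to 1.21), 0.931 (0.780 to 1.11), 1.20 (0.768 to 1.87) and 1.28 (0.757 to 2.16). The median distance to a protein-coding start was 45.8 kb, and 310 peaks (32.0%) lay over 100 kb from one. AP-1 motifs were at 105 of the 519 intronic peaks (20.2%), 68 of 378 intergenic (18.0%), 4 of 42 promoter and 0 of 31 exonic peaks, where the exact upper bound is 11.2%. At lost peaks on DAXX, 11 of 27 exonic peaks held the motif.

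The 10 strongest of the lost peaks away from DAXX lay in or near genes of several kinds. The first was in an intron of PARD3, a scaffold of the cell polarity complex, 2.72 kb from the nearest WT DAXX peak, and held a RUNX motif. The next was in an intron of ERN1, which encodes the endoplasmic reticulum stress sensor IRE1. The next pair lay 24.3 kb from the start of TMEM26 and 67.4 kb from that of TP63, which encodes a transcription factor of basal prostate epithelium. The following 2, 206 kb from ZHX2 and 190 kb from FAR2, both held an AP-1 motif. The others were in an intron of HNF4G, a nuclear receptor gene, in an intron of SLX4IP with an AP-1 motif, 105 kb from the ETS factor gene ETV1, and in an unnamed gene model 30.3 kb from the start of DCAF13 with an AP-1 motif. Of the 10, 4 held AP-1, 5 held RUNX, 2 were on a WT H3(Lys4) region and 5 were on chromosome 8 or 10.

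The first 10 peaks at promoters were at CUEDC1, MED25, a Mediator subunit, GHR, the growth hormone receptor, SPRED2, an inhibitor of RAS and MAPK signalling, MAPRE3, a microtubule end-binding protein, CDK4, a kinase of the G1 phase, ADGRG6, an adhesion receptor, CLCN3, a chloride transporter, CP, which encodes ceruloplasmin, and AHI1, a ciliary protein. The distance from the start ranged from 76 bp at AHI1 to 970 bp at SPRED2. They held 0 CpG at CUEDC1 and 16 CpG at MAPRE3, and 2 of the 10, GHR and AHI1, held an AP-1 motif. A WT H3(Lys4) region lay on 3 of them, SPRED2, ADGRG6 and AHI1, and on 18 of all 42 promoter peaks (42.9%).

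Lost peaks away from DAXX made up more of the weak end of the WT DNMT1 list. Every peak has the same score in the file, so strength was read from the order, in which peaks come in 75 runs sorted by chromosome and position, and peaks of 1 run were taken as tied. The largest run held 455 peaks. In 8 steps built from whole runs, the group's share rose from 44 of 207 peaks (21.3%) in the strongest step to 316 of 548 (57.7%) in the weakest, while lost peaks on DAXX went from 29.0% to 41.1% with a highest value of 58.6% in the third step. Of the 90 kept peaks away from DAXX, 71 were in the first of 4 equal parts of the list.

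The AP-1 share away from DAXX was highest in the strongest step, and no test compared the steps. It was 31.8% (18.6 to 47.6) in the strongest step, between 20% and 25.9% in the next 4, and 9.01%, 10.8% and 17.4% in the last 3. At lost peaks on DAXX it stayed between 29.9% and 41.1% in all 8 steps. Stratified over the runs, the odds ratio against lost peaks on DAXX was 0.408 (0.330 to 0.504) for AP-1 and 0.526 (0.436 to 0.634) for WT H3(Lys4). The WT H3(Lys4) shares away from and on DAXX were close in the 3 strongest steps, at 29.5% and 28.3%, 36.8% and 35.5%, and 36.5% and 36.7%. They were farther apart in the 5 weaker steps, with 30.1% and 55.6% in the weakest. For RUNX the shares away from and on DAXX were 29.5% and 21.7% in the strongest step and 24.6% and 23.6% in the next. In every later step the RUNX share was lower away from DAXX, with 14.6% and 31.1% in the weakest. No test compared the steps.

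**Figure D2:**
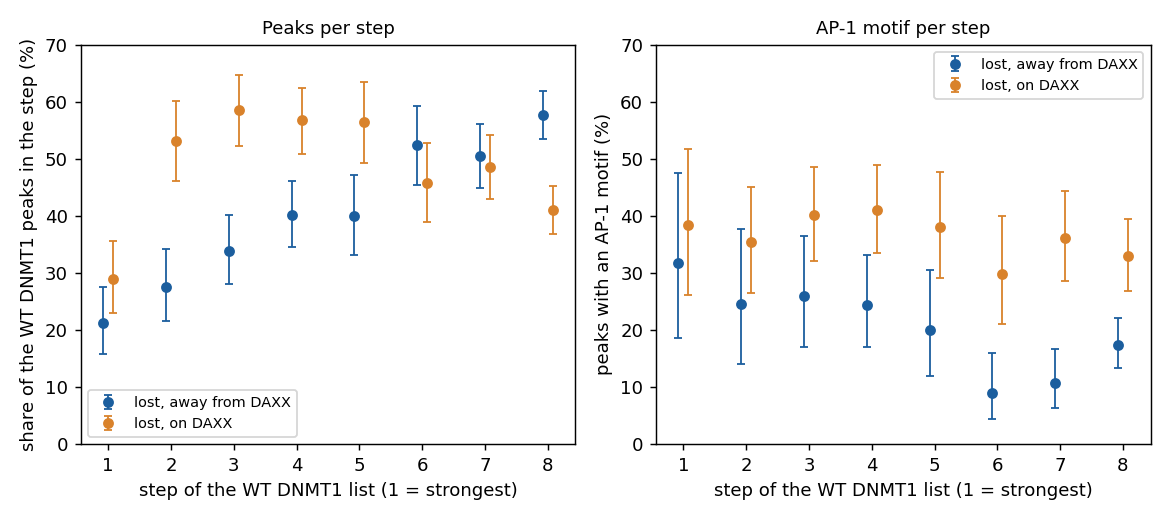
Left, share of the WT DNMT1 peaks of each step that were lost away from DAXX (blue) or lost on DAXX (orange), in percent; right, share of each group with an AP-1 motif. Step 1 is the strongest and bars are exact 95% binomial intervals; away from DAXX the first share climbs from 21.3% to 57.7%, and the AP-1 share is below that on DAXX in all 8 steps.

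The distance from the lost peaks away from DAXX to a DAXX peak varied widely. A WT DAXX peak lay on the same chromosome for 969 of the 970, and 1 peak, on chromosome Y, had none there. For the 969, the nearest was a median of 4.89 kb away (quartiles 0.799 and 18.4 kb). Of the group, 134 peaks had one under 200 bp away, 263 (27.1%) under 1000 bp and 615 under 10 kb. Another 21 of the 969 had their nearest over 100 kb away. The closest members abutted a DAXX peak with no base between, in introns of NUDT3 and of TJP1, the tight junction protein ZO-1, and the next were 1, 6 and 7 bases away, near DDHD1, in an exon of KIF13A and in an intron of STOX1. Just outside the rule, lost peaks in HIVEP2 and TNFRSF11A shared 2 and 3 bases with a DAXX peak, as did peaks in RUNX1, near FOXQ1 and at the NOP10 start with 3 bases each. Of the 5 nearest members, those in TJP1, near DDHD1 and in KIF13A were also on a K/D DAXX peak. Under 10 bases separated 8 members from DAXX, and 13 of the 1072 lost peaks on DAXX shared under 10 bases. The nearest K/D DNMT1 peak was a median of 1031 kb away, and the closest were 42, 143 and 188 bases off, in SLX4IP, in CLOCK, the circadian transcription factor, and near DACT1.

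The AP-1 share did not climb towards DAXX. It was 17.2% (11.2 to 24.6) for members under 200 bp from a WT DAXX peak, 15.5% between 200 bp and 1 kb, 21.0% between 1 and 10 kb and 17.4% between 10 and 100 kb, with intervals that overlap. The WT H3(Lys4) share was 36.6%, 45.0% (36.2 to 54.0), 31.5% and 24% (19.5 to 29.0) over the same distances.

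**Figure D3:**
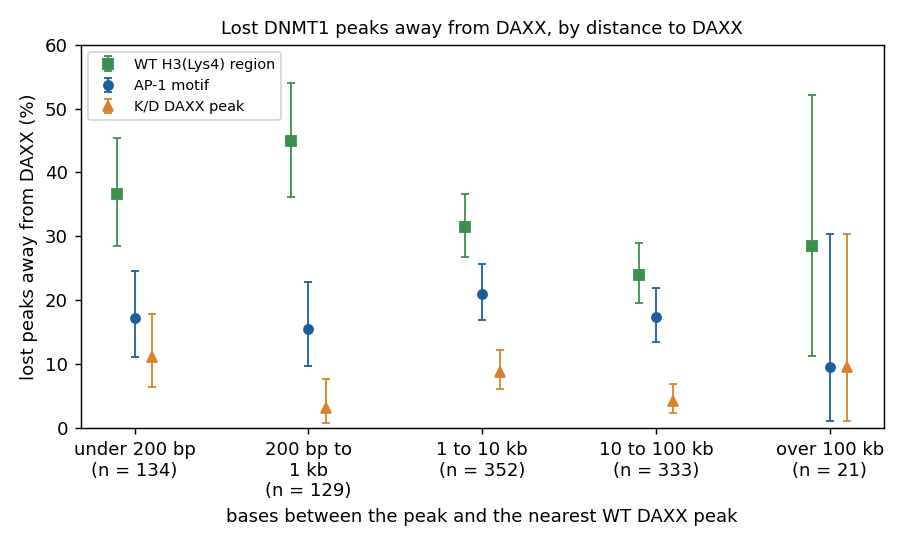
Share of the lost peaks away from DAXX on a WT H3(Lys4) region (green), with an AP-1 motif (blue) or on a K/D DAXX peak (orange), in percent with exact 95% binomial intervals, by the number of bases to the nearest WT DAXX peak. The H3(Lys4) share is 45.0% at 200 bp to 1 kb and 24% at 10 to 100 kb, and the AP-1 share stays between 15.5% and 21.0% up to 100 kb.

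DAXX peaks in the K/D cells are tied to the rule through the WT list, so they are given as a description. Of the 970 peaks, 66 (6.80%) were on a K/D DAXX peak, against 50.4% of lost peaks on DAXX and 30.3% of all WT DNMT1 peaks. AP-1 was at 19 of the 66 (28.8%). The strongest 3 were at the CUEDC1 promoter and in introns of SSH1, a cofilin phosphatase, and SPIDR, a scaffold of homologous recombination.

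Chromosomes 8, 10 and 14, picked after the counts were seen, carried 277 of the 970 lost peaks away from DAXX (28.6%, 25.7 to 31.5), with 12.7% of the sequence of the 24 chromosomes. They carried 16.6% of lost peaks on DAXX, 14.4% of kept peaks away from DAXX and 13.4% of WT DAXX peaks. Of all 2234 WT DNMT1 peaks they carried 484, or 1.34 per Mb against 0.701 on the other chromosomes together. The densities there and elsewhere were 0.764 and 0.278 per Mb for the group and 0.491 and 0.358 for lost peaks on DAXX. The density was 0.838 peaks per Mb on chromosome 14, 0.742 on chromosome 8 and 0.739 on chromosome 10, against 0.339 over all chromosomes and 0.0463 on X. WT DAXX peaks on the same 3 numbered 21.9, 22.4 and 21.9 per Mb, near the 20.9 of the whole genome. In the first 50% of the DNMT1 list the 3 chromosomes held 25.6% of the group and 19.5% of lost peaks on DAXX, and in the rest 30.3% and 13.2%. The densest stretch of 10 Mb was chromosome 10 from 30 to 40 Mb, with 31 members, 4 lost peaks on DAXX and 329 WT DAXX peaks, where the median over 322 such stretches was 2 members. Stretches of chromosome 14 from 50 to 60 Mb and 60 to 70 Mb followed with 25 and 23. Without these 3 chromosomes the odds ratio against lost peaks on DAXX was 0.448 (0.357 to 0.562) for AP-1 and 0.655 (0.534 to 0.803) for WT H3(Lys4). The copy number of the chromosomes was not measured in these files, and its part in the counts was not tested.

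**Figure D4:**
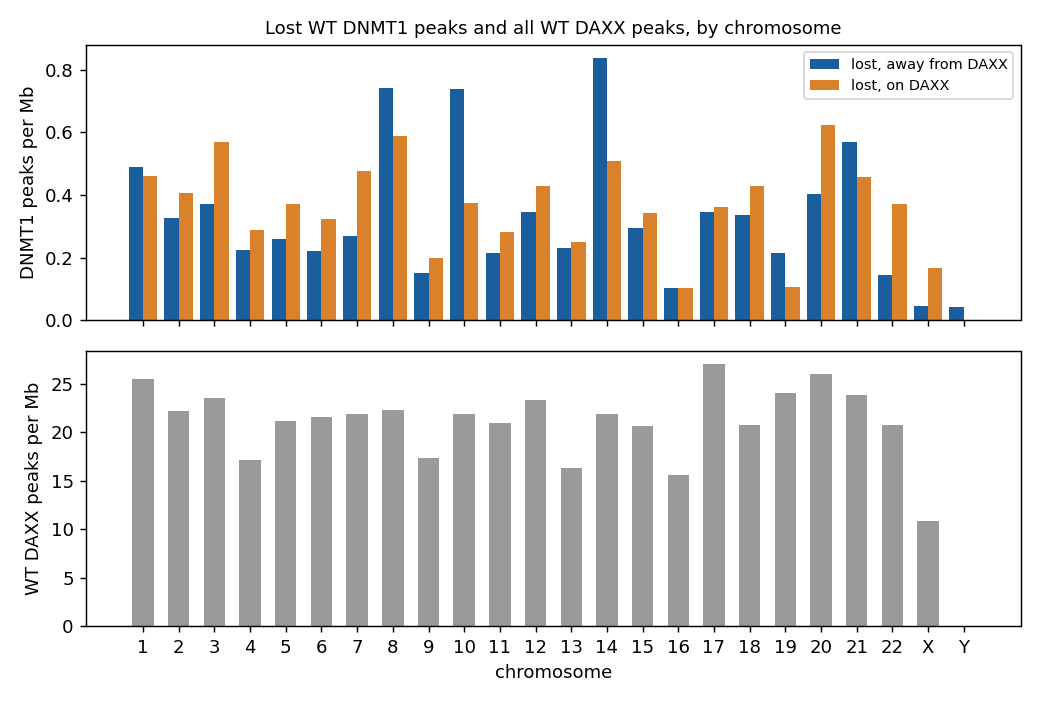
Peaks per Mb of sequence without gaps on each chromosome: top, lost WT DNMT1 peaks away from DAXX (blue) and on DAXX (orange); bottom, all WT DAXX peaks (grey). The blue bars peak at 0.838 on chromosome 14 while DAXX stays near 20.9 on most chromosomes.

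A peak of the group lay in the body or within 10 kb of a start of 607 of 20163 protein-coding genes (3.01%). These were long genes, with a median length of 130 kb against 27.2 kb for all genes. Of the longest 25% of genes, above 71.3 kb, 8.39% had a peak, and of the shortest 25% 0.754%. PARD3 had the most, with 9 peaks over 624 kb, all intronic, of which 1 held an AP-1 motif and 1 was on a WT H3(Lys4) region. Its body also held 34 WT DAXX peaks, and the WT DAXX peak nearest to each of the 9 was 0.163 to 21.0 kb away. GPHN, which encodes the synaptic scaffold gephyrin, and CTNNA3, an alpha-catenin gene, had 5 each. PCNX2, EFR3A, which anchors a lipid kinase to the plasma membrane, SPIDR, ACOT7, an acyl-CoA thioesterase, TDP2 and PRKCH, a protein kinase C, had 3 each. Of the 10 genes with most peaks, with ties among the 16 genes with 3 or more broken by the strongest peak, 6 are on chromosome 8, 10 or 14.

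TDP2, which encodes the enzyme that removes topoisomerase II adducts from DNA, stood apart in where its peaks lay. It is 17.0 kb long, and its 3 peaks were on 3 of its 7 exon blocks, which make up 13.8% of the gene, whereas the other 39 peaks of the 10 genes were intronic. The gene held no other WT DNMT1 peak, no K/D DNMT1 peak and no DAXX peak from either line. This pattern was picked out after the values were seen. In addition, 2 exonic peaks lay within both ZNF589 and NME6, which overlap.

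Gene lists were read by counts alone. Of 25 integrin and focal adhesion genes, with a median length of 90.9 kb, 6 had a peak (24%), among them FERMT2, a kindlin that activates integrins, ITGA2 and ITGA6, the collagen and laminin receptor subunits, VCL, encoding vinculin, and PTK2, encoding focal adhesion kinase, which had 2. In the 5 genes named, the strongest peak was in the gene body, between 18.6 kb at PTK2 and 89.1 kb at VCL from a start of the gene. Of 24 polarity and tight junction genes 4 had one (16.7%): PARD3, PALS1, TJP1 and PATJ. Of 15 TGF-beta pathway genes 3 had one (20%): TGFB2, a ligand, TGFBR3, a coreceptor, and SMURF2, a ubiquitin ligase that lowers the receptors, with its strongest peak 1.13 kb from a start. The unfolded protein response list had 2 of 14, among them ERN1. Each of 4 lists had 1 gene: WWTR1, which encodes the TEAD coactivator TAZ and whose peak held 2 AP-1 motifs, of 20 RUNX, TEAD and ETS factors, SPRED2 of 19 EGFR and MAPK feedback genes, ZEB1, a repressor of epithelial genes, of 16 for the epithelial-mesenchymal transition, and RPTOR, the mTORC1 subunit raptor, of 39 autophagy genes. No peak was found at the 16 AP-1 family genes, the 11 androgen receptor and luminal genes, the 17 DNA methylation genes or the 11 genes of DAXX partners and H3.3. The share over all genes was 3.01%, and the lists differ in gene length.

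Some lost peaks away from DAXX were linked by a shared sequence. In an alignment of all 970 peaks with one another, 55 formed a linked group, on 19 chromosomes, while the next group had 6. Links were not particular to the peaks: 87 of the 970 peaks (8.97%) were linked to another, against 196 of the 970 windows 2 kb upstream (20.2%), whose largest group had 139. The strongest of the 55 was used to search the genome with BLAST, and each match was taken as a copy. The genome held 8190 such copies, 0.0455% of its sequence. Of the 970 lost peaks away from DAXX, 33 were centred on a copy (3.40%, 2.35 to 4.74), against 1 of 1940 positions 2 kb to either side (0.0515%). All 33 were among the 55 linked peaks, and the other 22 linked peaks were not centred on a match. Lost peaks on DAXX were on a copy in 27 of 1072 cases (2.52%), all WT DAXX peaks in 0.192% and WT H3(Lys4) regions in 0.0944%. Kept peaks away from DAXX had the highest share, 14 of 90 (15.6%, 8.77 to 24.7), and within the first of 4 equal parts of the list it was 13 of 71 (18.3%) for them and 9 of 161 (5.59%) for the lost ones. Of the 8190 copies, 98 (1.20%) touched a WT DNMT1 peak and 28 a K/D DNMT1 peak. The 33 peaks were on 15 chromosomes, and 4 held AP-1 (12.1%), 10 held ACAGTCA (30.3%) and 15 were on a WT H3(Lys4) region (45.5%). Among the other 937 peaks of the group the shares were 18.5%, 14.2% and 30.8% in the same order, with intervals that overlap each time. Without peaks centred on a copy, but with those 22, the odds ratio against lost peaks on DAXX was 0.380 for AP-1 and 0.546 for WT H3(Lys4). The copies were found by searching with a peak of the group, so these shares are a description, and no repeat annotation was used.

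**Figure D5:**
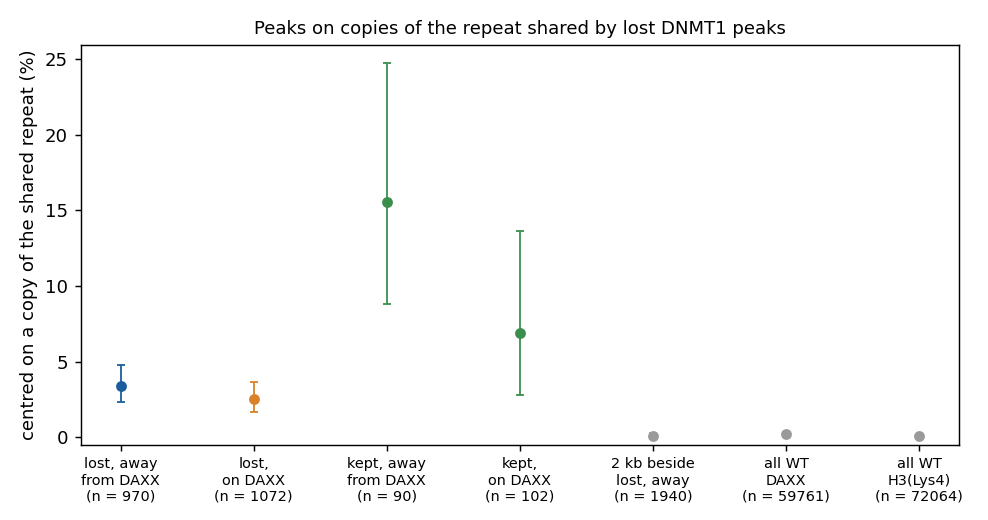
Share of peaks or positions centred on a copy of the shared repeat, in percent with exact 95% binomial intervals, for the 4 groups of WT DNMT1 peaks, positions 2 kb beside the lost peaks away from DAXX, all WT DAXX peaks and all WT H3(Lys4) regions. The lost peaks away from DAXX stand at 3.40% and the kept ones at 15.6%, while the 3 grey groups are at 0.192% or below.

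Against the 90 kept peaks away from DAXX, none of 4 properties passed the test, at an adjusted or an unadjusted p. AP-1 was at 18.2% of lost and 24.4% of kept peaks (odds ratio 0.690, 0.415 to 1.15, adjusted p = 0.241, Fisher's exact test), and stratified over 4 equal parts of the list the ratio was 1.08 (0.614 to 1.91). WT H3(Lys4) regions covered 31.3% and 32.2% (odds ratio 0.960, 0.605 to 1.52). With regions within 1000 bp counted as well, the shares were farther apart, at 48.8% (45.6 to 52.0) and 64.4% (53.7 to 74.3). That wider measure was not tested against kept peaks. Promoters held 4.33% and 7.78% (odds ratio 0.537, 0.234 to 1.23), and a CpG was at 71.6% and 78.9% (odds ratio 0.676, interval 0.40 to 1.14). The half-site was in none of the 90 kept peaks, which allows a share of up to 4.02%, and in 3.40% of the lost ones. In the windows 2 kb to either side it was at 15% beside the kept and 8.45% beside the lost peaks. The SP1 motif was in 10 of the 90 kept peaks (11.1%, 5.46 to 19.5) and in 2.58% of the lost ones (1.67 to 3.78). Kept peaks on DAXX held SP1 at 9.80%, so the higher share was not particular to kept peaks away from DAXX. The windows beside the peaks away from DAXX also differed, with SP1 in 6.11% beside the kept and 2.73% beside the lost ones. SP1 was picked out after the values were seen. Neither motif was among the 4 properties tested.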

How the data were processed

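The 6 peak lists came from ChIP-Seq with DAXX, DNMT1 and H3(Lys4) antibodies, each with 1 library per line. Per the submitters' processing notes, CASAVA 1.8.2, Bowtie2 2.1.0 and HOMER 4.6 were used with hg19. Per the file headers, peaks were called against the line's input, with a false discovery rate of 0.001 and at least 4 times the tags of the input and of the surrounding 10 kb. The deposited files give positions and a score that is 1 for every peak, so no signal per peak was analysed. The lists held 600 to 72215 peaks from 12050101 to 18705056 tags, and depth sets which weak peaks are called.

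Peaks sharing at least 1 base were counted as shared. Motifs were searched in 201 bp around each centre in GRCh37, and genes were taken from GENCODE 44 lifted to GRCh37. Fisher's exact tests, two-sided, with Woolf intervals, were adjusted by Benjamini-Hochberg over 19 properties (lost on DAXX) or 4 (kept away), with Python 3.11.15 and scipy 1.17.1. The tests were tested on simulated lists. Peaks were aligned with Biopython 1.88, and copies were found with BLAST 2.17.0 (e-value 1e-05). No sequence of chromosome 8 is printed, and some genes and sequences are not reported here. Named peaks were the first of the list, at promoters, nearest to the rule's limit, in the genes with most peaks or in the lists, and others are marked as picked afterwards. The peaks, lists and tests were chosen with earlier results of these data known.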

Additional observations from a re-analysis of the deposited data

How the results depend on the processing

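The odds ratios of lost peaks away from DAXX against those on DAXX kept direction and call under all 7 alternatives for AP-1 (0.377 to 0.484), WT H3(Lys4) (0.473 to 0.655), RUNX (0.447 to 0.565) and the half-site (0.312 to 0.455). In each, the alternative p was put into the family of the main tests and adjusted again. The group had 368 members in the first 50% of the WT DNMT1 list, which holds fewer peaks, and 233 genes had a peak within 10 kb of a start when gene bodies were left out. The K/D H3(Lys4) difference passed the test with DAXX or K/D DNMT1 peaks within 1000 bp counted as shared (0.745), stratified over 4 equal parts of the list (0.758) or over tied runs (0.755), and with regions within 1000 bp (0.504). The CpG difference did not pass at 3 CpG (0.866) or without chromosomes 8, 10 and 14 (0.884). Reversed in direction, with no call either way, were the intron share with promoters of 2500 bp to either side (0.970), GATA without chromosomes 8, 10 and 14 (0.922), the E-box in the deposited peak (1.11) and without those chromosomes (1.30), and, over 4 equal parts of the list against kept peaks, AP-1 (1.08) and WT H3(Lys4) (1.01). The cause was not tested. Leaving out those chromosomes or the repeat copies and stratifying by tied runs were chosen after seeing the data. Depth and the 9-tag threshold limit which K/D sites could be called. No paired analysis was possible because each group was 1 library.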

Other observations

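5 further linked groups of 3 or more lost peaks away from DAXX held 20 peaks in all, and 1 of them joined peaks on chromosomes 2, 10 and Y that all lay between genes. Among peaks with a WT DAXX peak on their chromosome, the 2 farthest from one were both on chromosome 21 upstream of TPTE, 4373 and 4344 kb from DAXX. The 3 peaks left out lay on the contigs Un_gl000212, Un_gl000214 and Un_gl000216. Of the 970 peaks, 319 held none of the 12 motifs.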
